A study of Mus musculus with 20 samples.

Results

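The interferon-gamma inducible GTPases described here are 10 genes, Gbp2, Gbp3, Gbp4, Gbp6, Gbp7, Igtp, Irgm1, Irgm2, Iigp1 and Tgtp1, chosen by name among the 28631 named genes of a mouse array. They are read by 14 probes of 39429, and 12 probes of 9 genes passed the filters on dim and little varying probes and were tested. RNA came from whole blood of male littermates 8 to 10 weeks old on a C57BL/6 background, bred from heterozygous parents. Blood was taken by cardiac puncture, reduced for globin RNA and hybridised to 20 single-colour arrays, counted here as 1 array per mouse. The 4 groups were wild-type (WT) mice sham-irradiated with 0 Gy, WT mice given 7 Gy of whole-body X-rays, mice of the line B6.129P2-Il10tm1Cgn/J (Il10-/-, a germline knockout of the anti-inflammatory cytokine interleukin-10 in every cell, used as a model of inflammatory bowel disease) given 0 Gy, and Il10-/- mice given 7 Gy, all sampled 24 h later with 5 arrays in each group. The comparisons ask which genes respond to radiation in each genotype, and whether inflammation changes the level or the response.

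Interferon-gamma acts through its receptor and the kinases JAK1 and JAK2, and its signal reaches genes through GAS elements in their promoters. A first wave of induced factors, among them IRF1, then acts on ISRE elements, which are also the target of the type I interferons. The GTPases downstream of both fall into guanylate-binding proteins (GBPs) and the smaller immunity-related GTPases (IRGs), which coat and break the vacuoles of intracellular parasites and bacteria. Igtp (Irgm3), Irgm1 and Irgm2 are regulatory IRGs that sit on host membranes and hold back the others, while Iigp1 (Irga6) and Tgtp1 (Irgb6) are effector IRGs that load onto the vacuole.

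The upstream sequences of the members show the 2 kinds of element. RefSeq promoter windows of mouse build GRCm38.p6, each 300 bases long with 250 bases before the transcription start and 50 after it, matched 7 of the 10 members, namely Gbp2, Gbp3 (2 start sites), Gbp7, Igtp, Irgm1, Irgm2 and Tgtp1. Windows on the chromosome that carries Iigp1 were left out before the matching, so this gene could not be matched. An ISRE-like motif was searched on both strands as GAAA, any 2 bases and GAAA again, and a GAS-like motif as TTC, any 3 bases and GAA, which reads the same on both strands. Of 32851 such windows, counted with that chromosome included, 3.44% held the first and 8.3% the second. The last 110 bases before the start are printed with the motif matches in capitals, since all matches in the members lay there. On the chromosomes these are chr3:142620553-142620662 (Gbp2, plus strand), chr3:142559934-142560043 (first start of Gbp3, plus), chr3:142530226-142530335 (Gbp7, plus), chr11:58199446-58199555 (Igtp, plus), chr11:58214867-58214976 (Irgm2, plus), chr11:48871421-48871530 (Irgm1, minus) and chr11:48992247-48992356 (Tgtp1, minus).
Gbp2: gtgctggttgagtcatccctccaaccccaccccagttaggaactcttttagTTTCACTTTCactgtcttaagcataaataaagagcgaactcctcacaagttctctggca
Gbp3: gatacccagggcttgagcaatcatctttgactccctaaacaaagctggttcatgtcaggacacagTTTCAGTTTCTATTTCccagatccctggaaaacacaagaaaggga
Gbp7: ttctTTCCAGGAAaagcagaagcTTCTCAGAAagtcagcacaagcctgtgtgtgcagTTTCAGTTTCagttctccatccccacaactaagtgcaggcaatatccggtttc
Igtp: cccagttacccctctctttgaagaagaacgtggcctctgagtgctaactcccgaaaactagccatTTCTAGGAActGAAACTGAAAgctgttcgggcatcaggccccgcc
Irgm2: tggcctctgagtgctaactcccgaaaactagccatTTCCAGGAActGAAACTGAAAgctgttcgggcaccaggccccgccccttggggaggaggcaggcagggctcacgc
Irgm1: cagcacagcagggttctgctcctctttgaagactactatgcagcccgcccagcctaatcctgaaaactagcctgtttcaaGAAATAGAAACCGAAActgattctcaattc
Tgtp1: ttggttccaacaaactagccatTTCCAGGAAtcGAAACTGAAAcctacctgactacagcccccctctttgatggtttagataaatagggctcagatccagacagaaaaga

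All 7 matched members held the ISRE-like motif. It lay on the antisense strand in the 3 GBP genes and on the sense strand in the 4 IRG genes, and Gbp3 and Irgm1 each had 2 overlapping copies. Counted from the start, the nearest copy ended at −15 (Irgm1) and the farthest began at −77 (Tgtp1). The GAS-like motif was found in 4 of the 7, with 2 copies in Gbp7 and 1 copy each in Igtp, Irgm2 and Tgtp1. In those 3 IRG genes exactly 2 bases separated it from the ISRE-like motif, whereas 25 and 44 bases did so in Gbp7. This joined order, the GAS-like motif, 2 bases and the ISRE-like motif, was present in 5 of the 32851 windows. The second start of Gbp3 held neither motif. Of the other interferon-inducible GTPases listed for comparison, 10 genes had a window outside chromosome 18, 6 of them with the ISRE-like and 4 with the GAS-like motif. These are matches of letters, and no factor binding was measured.

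**Figure D1:**
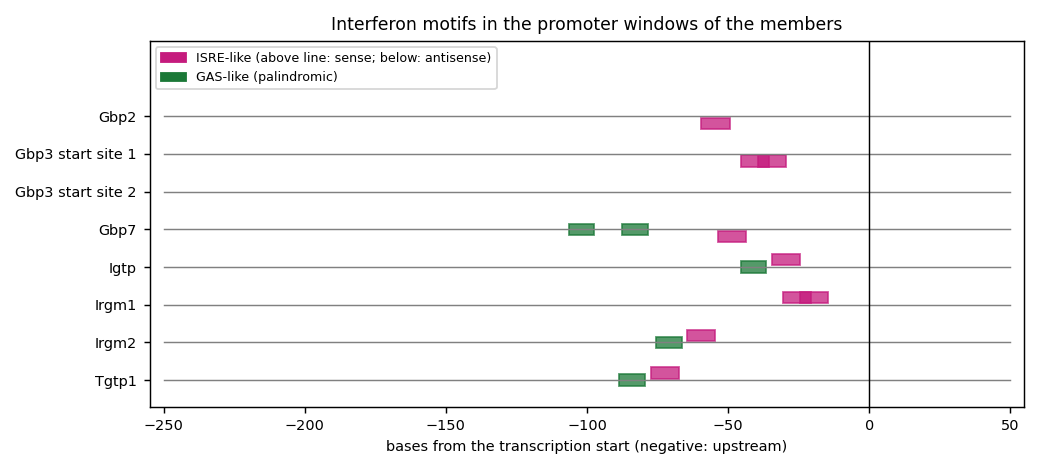
Positions of ISRE-like (pink) and GAS-like (green) matches in the 300-base promoter windows of the members, in bases from the transcription start; ISRE-like boxes above the line are on the sense strand and those below it on the antisense strand. All matches lie between −106 and −15 bases from the start, and the 3 IRG genes Igtp, Irgm2 and Tgtp1 share the same order of both motifs.

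Levels are given as log2 signal minus the median of the array, so that a difference of 1 is a doubling. They are compared between groups for 1 probe at a time and never between probes. A feature counted as called in limma when its unadjusted p was below 0.001 and its adjusted p, by Benjamini and Hochberg over 18581 tested features, was under 10%. The Il10 probe was read first as a check of the genotype labels. It was well above background on 5 of 5 arrays of each group labelled Il10-/- and on 0 of 5 of each group labelled WT, at least 7.12-fold higher at 0 Gy and 8.0-fold at 7 Gy. A bound of this kind sets the bright group's mean against the lowest signal that was still well above background on each array of the dim group. This is opposite to a lost transcript, and directions between genotypes therefore rest on the labels. Of 7 neutrophil markers, 4 were called higher in the arrays labelled Il10-/- at 0 Gy, with a median difference of 1.90. Replicate 5 of the WT 0 Gy group was weaker than the rest, with 29.9% of spots well above background against 34.6% to 57.8%. Each of the 5 slides held 1 array of every group, so differences within a slide are given beside the fits. Replicates 1 and 2 were the closest pair in every group. The robust SD of the log2 differences between their probes was 0.21 to 0.31, against 0.35 to 1.25 for the 36 other pairs. The sample titles do not say whether these are separate mice. They were counted as separate, and their average served as an alternative.

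In WT blood, 7 of the 9 tested genes rose 24 h after 7 Gy. These were the GBPs Gbp2, Gbp3 and Gbp6 and the IRGs Igtp, Irgm1, Irgm2 and Iigp1. By probe, 8 of 12 were called higher and 0 lower in limma, where 4.48% of all tested features were called higher and 2.32% lower, 6.8% in all. At an unadjusted p below 0.05, 7 genes differed, as did 29% of features. The median difference of the 9 genes, each by its brightest probe, was 1.75, and that of all tested features was −0.02. The 2 genes without a call were Gbp4 and Gbp7.

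Gbp2 is a guanylate-binding protein that coats Toxoplasma vacuoles and bacteria. Its levels on the 5 WT 0 Gy arrays were 4.02, 4.04, 4.04, 2.95 and 0.99, and on the 5 WT 7 Gy arrays 5.15, 5.4, 5.81, 5.49 and 6.23, in the order of replicates 1 to 5. All irradiated arrays lay above all unirradiated ones, and the weak replicate 5 was the lowest by far. The difference was 2.41 (SE 0.55, adjusted p = 0.00881), a 5.31-fold rise, and within slides it was 1.13 to 5.24. Gbp3 went from 3.80, 4.09, 3.65, 2.68 and 1.88 to 5.05, 4.94, 4.90, 5.05 and 5.80. The groups were again apart, with a difference of 1.93 (SE 0.45, adjusted p = 0.0107).

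Gbp6 had 2 probes that differed in size. Probe 2 read −0.16, 0.44, 0.54, −1.38 and −1.03 at 0 Gy and 1.55, 1.94, 2.44, 2.07 and 1.34 at 7 Gy. It rose by 2.19 (SE 0.45, adjusted p = 0.00469), and its slide differences of 1.5 to 3.46 were all above 0. Probe 1 had 0.76 to 1.20 at 0 Gy and 1.78 to 2.49 at 7 Gy, a difference of 1.12 (SE 0.34, adjusted p = 0.0375) that was not called although the groups did not overlap. This probe lies at chr5:105644259-105644318 of mm9, with its start 494 bases from that of the array's Gbp10 probe and 57869 bases from that of Gbp6 probe 2, so which gene copy it reads is uncertain. The 2 probes correlated with r = 0.72 over the 20 arrays.

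Among the regulatory IRGs, Irgm2 went from 4.12, 4.27, 4.18, 2.90 and 2.39 at 0 Gy to 5.09, 5.15, 5.41, 5.45 and 5.68 at 7 Gy. Every irradiated array was above every unirradiated one, and the difference was 1.78 (SE 0.43, adjusted p = 0.0127). Igtp had the strongest replication within an array, with 10 spots. Its levels were 6.48, 6.59, 6.53, 6.21 and 4.78 at 0 Gy, and 7.34, 7.42, 7.99, 8.31 and 8.26 at 7 Gy. The groups did not overlap, and Igtp rose by 1.75 (SE 0.43, adjusted p = 0.0138). Irgm1 probe 1 had 4.60, 4.75, 4.51, 3.39 and 2.90 at 0 Gy and 5.47, 5.67, 5.79, 5.73 and 6.13 at 7 Gy, a rise of 1.73 (SE 0.43, adjusted p = 0.0139). Irgm1 probe 2 differed by 1.52 (SE 0.43, adjusted p = 0.0277), which was not called, and followed probe 1 with r = 0.98 over the 20 arrays. For all 3 genes each slide gave a higher irradiated array, at 0.83 or more for Igtp, 0.87 for Irgm1 probe 1 and 0.88 for Irgm2.

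The effector Iigp1 behaved less evenly. Probe 1 read 2.18, 2.24, 1.76, 1.88 and 0.62 at 0 Gy, and 5.11, 5.14, 3.44, 2.40 and 3.39 at 7 Gy. Replicates 1 and 2 stood far above the other irradiated arrays, and replicate 4 only just exceeded the highest unirradiated array. The difference was 2.16 (SE 0.54, adjusted p = 0.0146). Probe 2 was well above background on 0 of 5 arrays at 0 Gy and on 4 of 5 at 7 Gy, which gives only a bound of at least 3.17-fold higher (adjusted p = 0.00169). Within slides, the differences of probe 1 were 0.52 to 2.93.

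Gbp4, another guanylate-binding protein, was not called. At 0 Gy it had 3.19, 3.06, 3.22, 1.95 and 1.39, and at 7 Gy 1.72, 1.86, 2.58, 2.68 and 2.45. The groups overlapped, and the difference was −0.31 (SE 0.44, adjusted p = 0.70). It was −1.47, −1.20 and −0.65 on slides 1 to 3 and 0.74 and 1.06 on slides 4 and 5. Gbp7, read by probe 1, had 0.50 to 1.91 at 0 Gy and 1.56 to 3.07 at 7 Gy, a difference of 0.89 (SE 0.42, adjusted p = 0.177). Gbp7 probe 2 was well above background on 0 of 20 arrays and was not tested.

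In total 10 of the 12 probes, of 7 genes, had groups without overlap in WT mice, and the same number had all 5 slide differences above 0. Over all tested features 11.9% were apart and higher, 4.26% apart and lower, and 18.5% had 5 slide differences above 0. The number of called genes depended on single arrays and on the fit. It was 2 without WT 0 Gy replicate 4, WT 7 Gy replicate 3 or WT 7 Gy replicate 5, 3 without WT 7 Gy replicate 1 or 4, and 4 without WT 7 Gy replicate 2, and it stayed at 7 without the weak WT 0 Gy replicate 5. Gbp6 and Iigp1 were called with each of the 10 arrays left out in turn, in both cases by probe 2. That probe was well above background on 3 of 5 WT 0 Gy arrays for Gbp6 and on 0 of 5 for Iigp1, and Iigp1 probe 1, measured on all arrays, lost its call in 19 of 25 alternatives. With the slide as a replicate block 4 genes were called (Gbp2, Gbp3, Gbp6 and Iigp1), as with replicates 1 and 2 averaged. These 2 alternatives called 8.76% and 4.06% of all features. Over the fits with 1 array left out, 4.64% to 8.46% of all features were called.

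**Figure D2:**
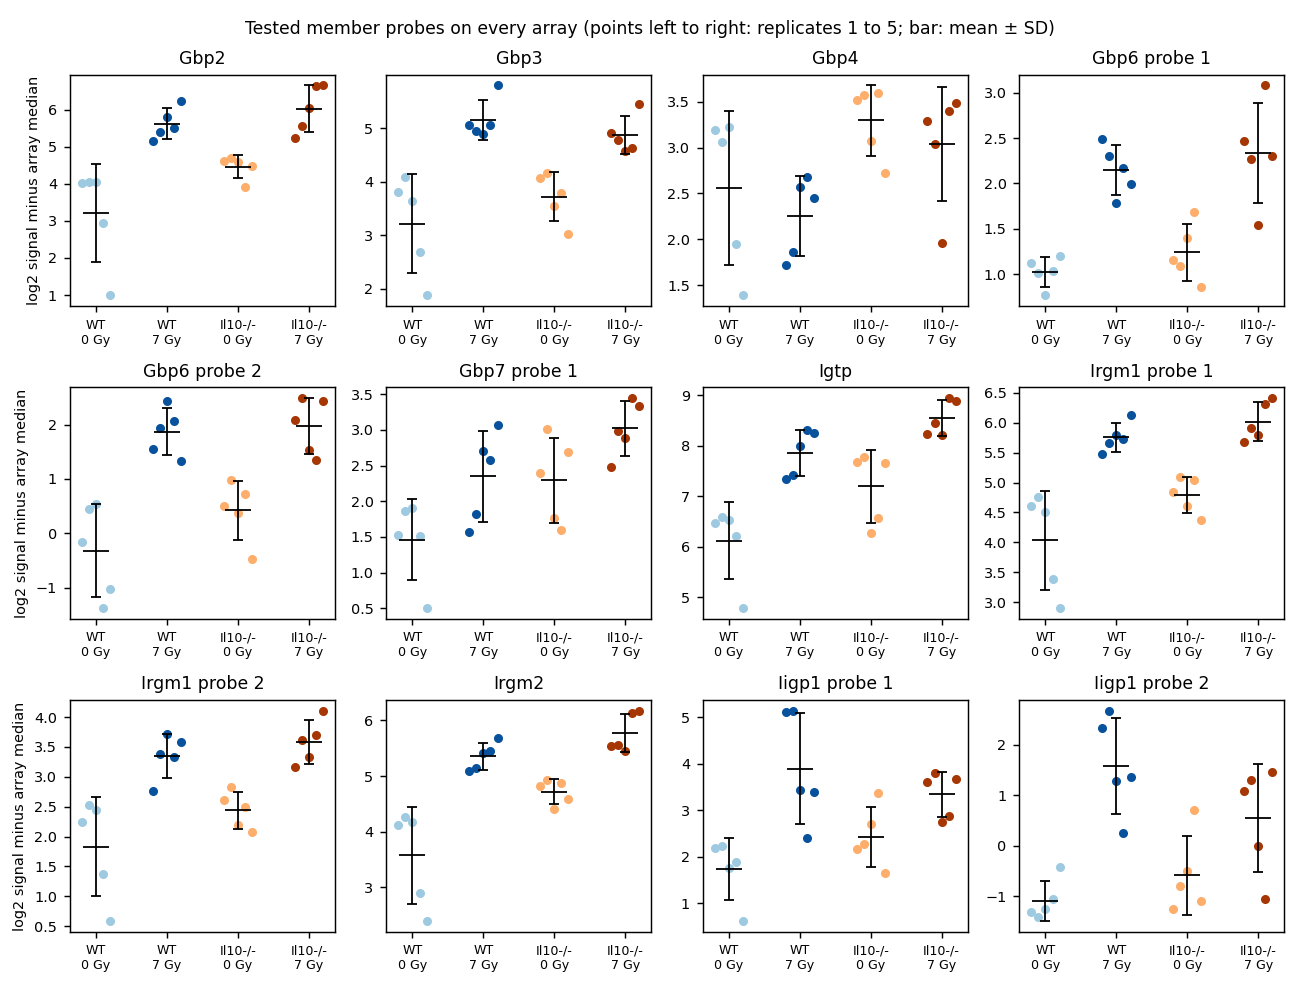
Log2 signal minus the array median of the 12 tested member probes in the 4 groups; each point is 1 array, in the order of replicates 1 to 5 from left to right, and bars give mean ± SD (n = 5). Gbp2, Igtp and Irgm2 of irradiated WT mice lie above every unirradiated WT array, whereas the Gbp4 groups overlap in both genotypes.

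In Il10-/- blood, 4 of the 9 tested genes rose after 7 Gy: Gbp2, Gbp6, Irgm1 and Irgm2. By probe 5 of 12 were called higher and 0 lower, where 3.28% of all tested features were called higher and 5.87% lower, 9.15% in all. The median difference over the 9 genes was 1.09, against −0.10 for all tested features. At an unadjusted p below 0.05, 8 of the 9 genes differed, all but Gbp4, as did 35.5% of features.

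Gbp2 had 4.61, 4.70, 4.60, 3.92 and 4.47 on the Il10-/- arrays at 0 Gy and 5.23, 5.57, 6.06, 6.63 and 6.65 at 7 Gy. The groups were apart, and Gbp2 rose by 1.56 (SE 0.31, adjusted p = 0.00492), which is 2.96-fold. Irgm1 probe 1 went from 4.85, 5.09, 4.60, 5.05 and 4.37 to 5.68, 5.90, 5.79, 6.32 and 6.41, a rise of 1.23 (SE 0.24, adjusted p = 0.00452), and its probe 2 rose by 1.14. Both Irgm1 probes were thus called here, with no overlap between the groups. Irgm2 went from 4.82, 4.92, 4.40, 4.88 and 4.59 to 5.55, 5.57, 5.45, 6.13 and 6.17. Its spread at 0 Gy (SD 0.22) was the smallest of the members in this group, and it rose by 1.05 (SE 0.23, adjusted p = 0.00854). Gbp6 probe 2 rose by 1.56 (SE 0.32, adjusted p = 0.00625), while probe 1 differed by 1.09 (adjusted p = 0.0204) with overlapping groups.

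Igtp and Gbp3 lay just outside the call. Igtp had 7.69, 7.78, 6.27, 6.57 and 7.67 at 0 Gy and 8.24, 8.45, 8.21, 8.95 and 8.89 at 7 Gy, with replicates 3 and 4 low before irradiation. No irradiated array reached down to an unirradiated one, and the difference was 1.35 (SE 0.34, unadjusted p = 0.00167, adjusted p = 0.0153). Gbp3 differed by 1.15 (SE 0.27, unadjusted p = 0.0012, adjusted p = 0.0123), also without overlap. Gbp7 probe 1 differed by 0.73 (adjusted p = 0.114) and Gbp4 by −0.26 (SE 0.32, adjusted p = 0.589).

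Iigp1 probe 1 had 2.16, 2.27, 2.71, 3.37 and 1.64 at 0 Gy and 3.61, 3.81, 2.75, 2.87 and 3.67 at 7 Gy. The groups overlapped, since replicate 4 was high without radiation and not with it, and the difference was 0.91 (SE 0.34, adjusted p = 0.0779). Probe 2 of Iigp1 was well above background on 1 of 5 arrays at 0 Gy and 3 of 5 at 7 Gy, and was not called (adjusted p = 0.13). With most unirradiated arrays at background, the size of its difference was not measured.

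Across the Il10-/- arrays 7 probes of 6 genes had groups apart, where 6.12% of features were apart and higher and 10.9% apart and lower, and 8 probes had 5 slide differences above 0, where 13.1% of features did. The call count was again sensitive. It fell to 2 without Il10-/- 0 Gy replicate 1 or 3, or without Il10-/- 7 Gy replicate 1, 2 or 5. Gbp2 and Irgm1 were called with each of the 10 arrays left out in turn, and 6.1% to 8.26% of all features were called in these fits. With the slide as a replicate block 0 members were called, where 6.94% of all features were called. The differences of the 4 genes called above kept adjusted p values of 0.0162 to 0.0241 in that fit. There 7 of the 9 tested genes had an unadjusted p below 0.05, and the share of all features with such a p was not counted. Averaging replicates 1 and 2 left 2 genes, and 1 fit of all 20 arrays left 1, where 4.39% and 6.51% of all features were called. Quantile scaling and scaling to a reference array instead gave 6 genes each, where 9.79% and 11.3% of all features were called.

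**Figure D3:**
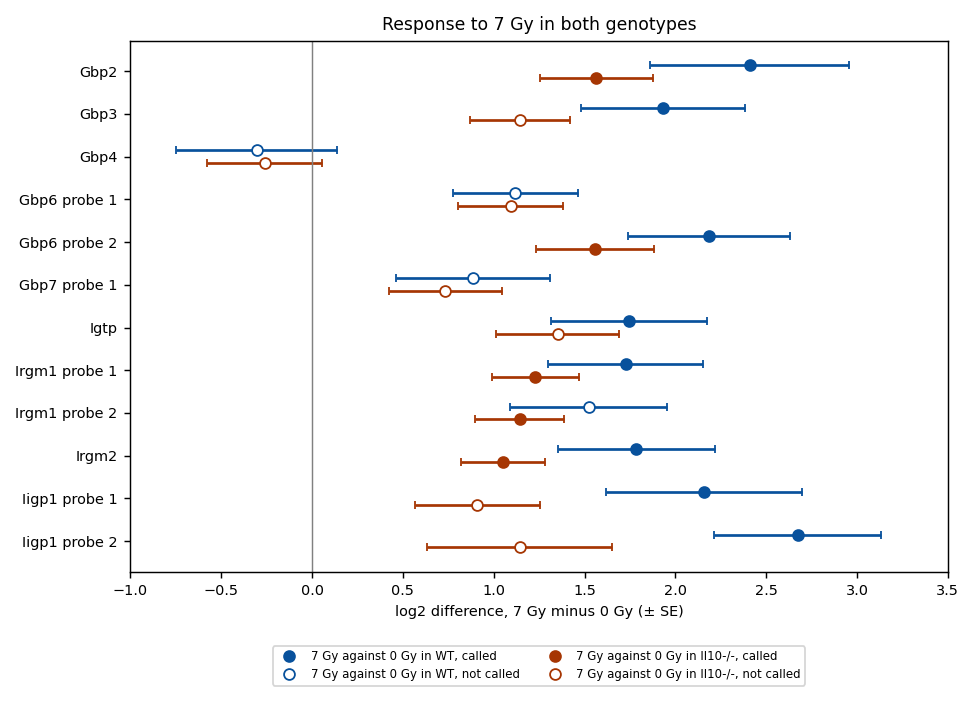
Log2 difference between 7 Gy and 0 Gy (± SE of the limma fit) for the 12 tested probes in WT (blue) and Il10-/- mice (brown), with filled points for called probes. All probes except Gbp4 lie above 0 in both genotypes, and all except Gbp4 have the larger fitted difference in WT mice; the WT value of Iigp1 probe 2 is taken against arrays at background and is no measured size.

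**Figure D4:**
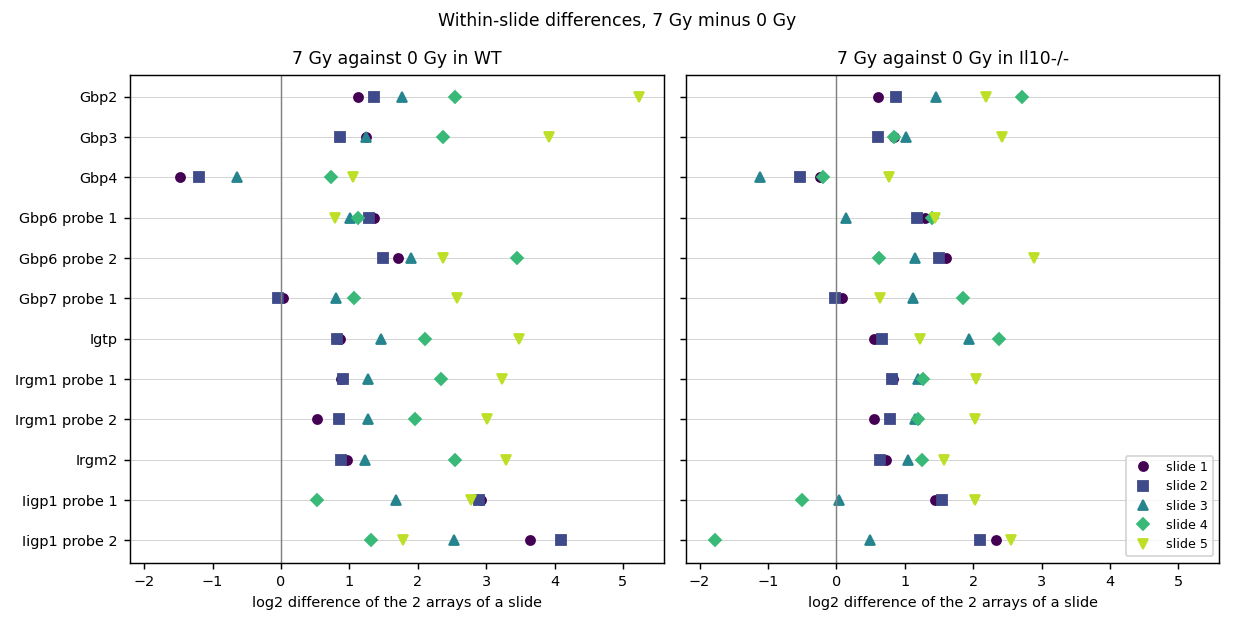
Difference between the irradiated and the unirradiated array of each of the 5 slides on the log2 scale, for WT (left) and Il10-/- (right). Irgm1 and Irgm2 are above 0 on every slide in both genotypes, and the largest WT differences of Gbp2, Gbp3, Igtp, Irgm1 and Irgm2 come from slide 5, which holds the weak WT 0 Gy array; the WT values of Iigp1 probe 2 are taken against arrays at background.

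At 0 Gy, no member was called between Il10-/- and WT mice in limma (0 of 12 probes, where 0.845% of all features were called), with or without moderation of the variance. The fitted differences were positive for all 12 probes, among them Iigp1 probe 2 at background on the WT arrays, and those of the other probes were 0.21 to 1.25, while the median difference of all tested features was also positive, at 0.36. Irgm2 differed most in relation to its error, with 4.40 to 4.92 in Il10-/- and 2.39 to 4.27 in WT mice and no overlap. Its difference was 1.15 (SE 0.42, adjusted p = 0.235), and 3.98% of features were apart and higher in this comparison. Gbp2 differed by 1.25 (adjusted p = 0.272) and Igtp by 1.08 (adjusted p = 0.276), both with overlapping groups. All 5 slide differences were above 0 for Gbp2, Irgm1 probe 1 and Irgm2, as for 13% of features. Irgm2, Gbp2 and Igtp had an unadjusted p below 0.05, as did 16.1% of all features. With other scalings the median of all features was −0.07 (75th percentile of each array), 0.01 (reference array), 0.11 (quantile) or 0.53 (normexp). The median over the members' probes was 0.74, and with these scalings it was 0.39, 0.45, 0.55 and 0.47 in the same order. With normexp only 7 of the members were tested. Without WT 0 Gy replicate 5, Gbp2 differed by 0.70, Igtp by 0.74 and Irgm2 by 0.85, with medians of 0.52 over the members' probes and 0.15 over all features.

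At 7 Gy, 0 of the 12 probes were called between the genotypes in limma, with or without moderation of the variance, where 0.00538% of features were called, and 2 genes had an unadjusted p below 0.05, Igtp and Gbp4, against 11.1% of all features. Every member's groups overlapped, while 2.25% of features were apart and higher. All 5 slide differences were above 0 for 5 probes, those of Gbp2, Gbp7, Igtp and Irgm2 and Irgm1 probe 1, and for 14.6% of features. Igtp was higher in Il10-/- mice by 0.22 to 1.03 within slides, with a fitted difference of 0.68 (SE 0.28, adjusted p = 0.415). Gbp4 differed by 0.78 (SE 0.33, adjusted p = 0.434), with 1.96 to 3.49 in irradiated Il10-/- and 1.72 to 2.68 in irradiated WT mice. Gbp3 was lower in Il10-/- mice on all 5 slides, by 0.14 to 0.42, and its fitted difference was −0.28 (SE 0.26, adjusted p = 0.694). Iigp1 had differences of −0.56 and −1.02 with its 2 probes, the second well above background on 3 of 5 Il10-/- and 4 of 5 WT arrays.

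The difference of the 2 radiation responses was tested with an interaction term, fitted by limma over the 20 arrays together. No member and no other feature was called (0 of 18581, or 0%), and no member was called without moderation of the variance. Every probe except Gbp4 had the smaller fitted response in Il10-/- mice, with a median over the 9 genes of −0.50, and the median of all tested features was −0.20. An unadjusted p below 0.05 was found for 1 gene, by Iigp1 probe 2, which had no measured level in WT mice at 0 Gy and for which no size is given. Over all features 7% had such a p. Iigp1 probe 1 had −1.25 (SE 0.67, adjusted p = 0.689), with a smaller response in Il10-/- mice on all 5 slides. For Gbp2 the difference of responses was −0.84 (SE 0.66, adjusted p = 0.752), for Gbp3 −0.78 and for Irgm2 −0.73, and for Gbp6 probe 1 it was −0.03 and for Gbp4 0.04. Without the weak WT 0 Gy replicate 5, Gbp2 had −0.29, Gbp3 −0.45 and Irgm2 −0.44, the median over the 12 probes went from −0.56 to −0.25 and that of all features from −0.20 to 0.02. With other scalings the probes' median was −0.31 (75th percentile of each array), −0.33 (reference array), −0.33 (quantile) and −1.14 (normexp, 7 genes tested). For all features it was 0.12, 0.08, −0.10 and −1.01. A p that misses the threshold does not show that the responses were alike.

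In order of the members' mean, the 4 groups ran from WT 0 Gy through Il10-/- 0 Gy and WT 7 Gy to Il10-/- 7 Gy. The order did not hold for each gene. Gbp3 and Iigp1 were lower in Il10-/- than in WT mice at 7 Gy, and Gbp4 was lowest in WT 7 Gy. The mean over the 9 genes on an array was 1.85 to 3.55 (median 3.40) in WT 0 Gy, 3.56 to 4.07 (median 3.83) in Il10-/- 0 Gy, 4.33 to 4.78 (median 4.43) in WT 7 Gy and 4.36 to 5.15 (median 4.71) in Il10-/- 7 Gy. The 2 irradiated groups overlapped, and the 2 unirradiated groups almost touched. Neither pair of neighbours by genotype was tested on this mean.

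Tgtp1, an effector IRG, could not be followed. Its only probe was marked on 5 of 20 arrays and failed the filter, and it was well above background on 0 of 5 WT 0 Gy, 2 of 5 WT 7 Gy, 3 of 5 Il10-/- 0 Gy and 1 of 5 Il10-/- 7 Gy arrays. The levels ran from −2.12 to −0.61, −1.29 to 0.38, −0.70 to 0.40 and −1.26 to 0.73 in that order of groups. The starts of the array's Tgtp2 probes lie 151 and 383 bases from that of this probe, so the gene copy is uncertain as well.

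Liver transcripts were higher after 7 Gy in WT blood and are given here beside Iigp1, without a computed correlation between them. Of 10 liver marker genes 9 were tested, and 5 were called higher after 7 Gy in WT mice and 0 in Il10-/- mice. Their mean log2 level was 0.38 to 2.61 in WT 0 Gy, 3.44 to 11.01 in WT 7 Gy, 2.77 to 9.41 in Il10-/- 0 Gy and 1.70 to 9.23 in Il10-/- 7 Gy. The tenth, Apoa1, did not pass the background filter. The WT 7 Gy replicates 1 and 2 had the highest liver level, 10.99 and 11.01, and the highest Iigp1 probe 1 level of all 20 arrays. They are the close pair for which the titles do not say whether they are separate mice. Likewise, Il10-/- 0 Gy replicates 4 and 3, at liver levels of 9.41 and 8.16, had the highest Iigp1 levels of their group. The irradiated Il10-/- arrays did not keep this order, since replicate 4 at a liver level of 8.15 had 2.87 and replicate 5 at 5.02 had 3.67.

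The arrays above a liver level of 8 were then dropped, an alternative chosen after seeing the data. This kept 5, 2, 3 and 2 arrays of WT 0 Gy, WT 7 Gy, Il10-/- 0 Gy and Il10-/- 7 Gy. The Iigp1 probe 1 difference in WT mice was then 1.16 in place of 2.16 and the difference of responses 0.02 in place of −1.25. The dropped arrays held the highest Iigp1 probe 1 levels of WT 7 Gy (5.11, 5.14 and 3.44) and of Il10-/- 0 Gy (2.71 and 3.37). A smaller WT difference thus followed from the choice of arrays, and the step cannot test a part of the liver transcripts. The same step left Gbp2 at 2.65, Gbp3 at 2.21, Igtp at 2.16 and Irgm2 at 1.99 in WT mice. With all arrays these were 2.41, 1.93, 1.75 and 1.78. In Il10-/- mice the step gave 1.18 for Iigp1 probe 1 in place of 0.91. It gave 1.76 for Gbp2, 1.33 for Irgm1 probe 1 and 1.03 for Irgm2 there. With so few arrays 0 members were called in WT mice and 1 in Il10-/- mice, where 2.19% and 4.79% of all features were called. In WT mice 8 of the 9 genes had an unadjusted p below 0.05. The share of all features with such a p was not counted in this step. Heart muscle genes (6 tested, 0 called higher in WT and 5 in Il10-/- mice) had mean levels of 0.45 to 3.33, 1.15 to 8.43, 0.43 to 4.10 and 2.50 to 8.20 in the order of groups above, and their part in the results was not tested, nor was that of the liver transcripts.

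**Figure D5:**
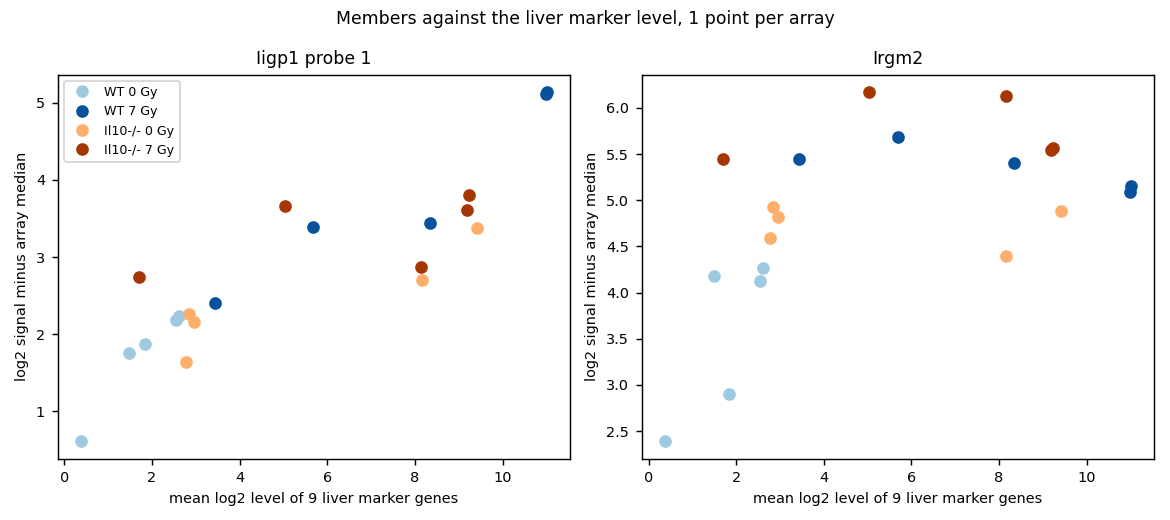
Log2 signal minus the array median of Iigp1 probe 1 (left) and Irgm2 (right) against the mean log2 level of 9 liver marker genes; each point is 1 of the 20 arrays, coloured by group. The 2 arrays with the highest liver level also have the highest Iigp1 signal, while Irgm2 of the irradiated groups lies between 5.09 and 6.17 over the whole range of the liver level.

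Markers of other blood cells moved with the dose too. Of 6 tested B-cell markers, 5 fell in each genotype after 7 Gy, and their mean level went from 5.05 to 6.63 in WT 0 Gy to 2.59 to 3.44 in WT 7 Gy, and from 5.08 to 6.30 to 2.22 to 2.55 in Il10-/- mice. In blood, fewer cells of a type and less RNA per cell cannot be told apart, and the part of cell composition in the members' differences was not tested. Of 5 tested monocyte markers, 2 were called higher and 1 lower in WT mice, and 2 lower in Il10-/- mice. Their mean levels overlapped between the doses, at 3.87 to 5.59 and 5.11 to 6.01 in WT and 5.41 to 6.10 and 5.43 to 6.05 in Il10-/- mice. Called lower in each genotype were also 2 of 6 T-cell, 3 of 7 erythroid and 1 of 6 dendritic cell markers, and of 7 NK-cell markers 0 were called. The platelet marker level was 7.56 to 9.21 and 9.34 to 10.43 in WT mice, with 0 markers called, and 8.03 to 10.82 and 10.47 to 11.40 in Il10-/- mice. Of 7 neutrophil markers 0 were called after radiation, and at 0 Gy 3 of 7 neutrophil precursor markers were called higher in Il10-/- than in WT mice. The neutrophil marker level was 6.19 to 7.74 and 6.82 to 7.42 in WT mice, and 8.28 to 9.63 and 7.71 to 9.82 in Il10-/- mice.

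Of 32 listed genes of the interferon-gamma pathway, from ligand to induced factors, 25 were tested. In WT mice 0 were called higher and 2 lower, and in Il10-/- mice 2 higher and 3 lower, where 6.8% and 9.15% of all features were called. Ifng, the ligand, had mean levels of 1.83 ± 1.29, 2.58 ± 0.58, 3.41 ± 0.47 and 3.66 ± 0.34 (SD, n = 5) in WT 0 Gy, WT 7 Gy, Il10-/- 0 Gy and Il10-/- 7 Gy. Its difference after radiation was 0.75 in WT and 0.25 in Il10-/- mice, without a call. The receptor chains Ifngr1 and Ifngr2 differed by −0.23 and 0.17 in WT mice and by −0.45 and −0.22 in Il10-/- mice, and the kinases Jak1 and Jak2 by −0.27 and 0.42, and by −0.19 and 0.28. Irf1 differed by 0.17 in WT and by −0.22 in Il10-/- mice.

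The genes of the pathway that were called had mixed directions. Irf8, a transcription factor of monocytes, dendritic cells and B cells, fell by 1.78 in WT and by 2.02 in Il10-/- mice. Ciita, the activator of MHC class II genes, was called lower in both, by 1.56 and 1.32 as fitted, but was well above background on only 3 of 5 WT and 1 of 5 Il10-/- arrays after 7 Gy. Batf2 and Cd274, which encodes the checkpoint ligand PD-L1, rose by 1.66 and 1.37 in Il10-/- mice and differed by 2.08 and 1.18 in WT mice without a call. Il18r1, a receptor chain for interleukin-18, fell by 1.62 in Il10-/- mice after radiation and was called higher at 0 Gy in Il10-/- than in WT mice, by 2.18.

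Of the type I interferon genes, 12 of 17 listed were tested, 6 were called higher in WT and 7 in Il10-/- mice, and 0 lower in either, with medians of 1.96 and 1.76. Among genes for antiviral proteins, Ifit1 rose by 2.48 and 2.59 in WT and Il10-/- mice, Ifit3 by 4.62 and 4.72, Mx1 by 2.91 and 2.84, Mx2 by 2.04 and 1.96, and Oas1a by 3.76 and 2.85. Usp18, which restrains interferon signalling, rose by 2.47 and 2.44. Irf7, a transcription factor of this pathway, rose by 1.56 in Il10-/- mice and differed by 1.88 in WT mice without a call. The members' medians of 1.75 and 1.09 lay between these and the interferon-gamma list's medians of 0.41 and 0.14. The 2 lists mix induced genes with ligands, receptors and factors in unlike proportions, and the part of either pathway was not tested.

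The other interferon-inducible GTPases gave 2 calls among 13 tested genes in WT mice and 4 in Il10-/- mice, all higher. Gbp2b rose in both, by 3.83 and 2.22, and was well above background on 2 of 5 WT 0 Gy arrays. Gm4951, an IRG-like gene, was well above background on 0 of 5 WT 0 Gy arrays, and was at least 23.7-fold higher after 7 Gy in WT mice and at least 2.98-fold higher in Il10-/- than in WT mice at 0 Gy. Gbp9, Gm12250 and F830016B08Rik rose in Il10-/- mice, by 1.67, 1.37 and 1.96, the last being well above background on 1 of 5 arrays at 0 Gy and 3 of 5 at 7 Gy. Among 8 tested genes of the Atg8 conjugation system, which delivers the IRGs to vacuoles, Map1lc3a rose in WT mice (2.04) and 0 were called in Il10-/- mice.

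Over the 20 arrays the members differed in how closely they followed each other. Against the mean of the other members, the correlation was 0.98 for Irgm1 and Irgm2, 0.96 for Gbp2, 0.91 for Igtp and for Gbp3, 0.79 for Gbp7, 0.70 for Gbp6, 0.62 for Iigp1 and 0.27 for Gbp4. With the mean of each group subtracted it was 0.94 for both Irgm1 and Irgm2 and 0.81 for Gbp4, but 0.10 for Iigp1 and −0.03 for Gbp6. Gbp4 thus followed the others between arrays of 1 group and not between the doses. These values share the arrays and their scaling, and are a description only.

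The genes most like the members' mean over the 20 arrays, among 17567 searched, were H2-Q5 (r = 0.983), LOC547349 (0.979), H2-T23 (0.978), Fez2 (0.974), Sdf4 (0.973), Sac3d1 (0.971), Tmem41a (0.971), Urm1 (0.97), Lamp2 (0.969) and NP883496 (0.968), where the median gene had 0.23. H2-Q5 and H2-T23 are MHC class I genes, and Lamp2 is a protein of the lysosome membrane. With group means subtracted the highest were Rad50 (0.975), Baz1a (0.972) and Wtap (0.971), and the median gene reached 0.47.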

How the data were processed

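For each array the authors deposited the output of Agilent Feature Extraction (12.0.2.2 in the file headers, 10.7 in the submitters' processing notes), an intensity per spot that the software had background-subtracted. A second table of log2 values deposited by the authors served as an alternative: over probes with 1 spot, 100% of its values lay within 0.01 of the log2 intensity plus 1 constant per array. After removal of spots marked as non-uniform outliers, log2 intensities of a probe's spots were averaged, and the array median over 39429 non-control probes subtracted. After the study's methods, probes marked on 25% or more of the arrays, or with fewer than 20% of arrays deviating 1.5-fold or more from their median, were removed. Each comparison was fitted in limma 3.58.1 (R 4.3.3) on its 10 arrays, the interaction on 20, and tested on simulated data beforehand. The 5 arrays per group limit the precision. Groups and replicate numbers came from the sample titles.

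All members were named, each with every probe, and a gene's brightest probe stood for it in medians. Genes of other lists were named when called in at least 1 comparison or when they are the ligand, receptors, kinases or transcription factors of the pathway, of which 1 is not reported here. Members and lists were chosen with earlier results of these data known. Alternatives covered the scaling, the filters, the variance model, the slide as a block and each array left out. Whether replicate numbers pair the arrays was checked by the correlation of deviations from the group means within a slide: the means over pairs of groups were −0.13 to 0.41, and in no pair did all 5 exceed 0.1. Promoters came from RefSeq tables of GRCm38.p6, and probe positions are in mm9 as the files give them.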

Additional observations from a re-analysis of the deposited data

Results flagged for a closer look

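Of 48 groups of 5 arrays (12 probes in 4 groups), 3 held an array that stood apart by Dixon's criterion, and chance gives about 1 in 20. Gbp3 was 5.80 on WT 7 Gy replicate 5, and the nearest array had 5.05. Igtp was 4.78 on WT 0 Gy replicate 5, next to 6.21. Gbp7 probe 1 was 0.50 on the same array, next to 1.51.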

How the results depend on the processing

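Of the 9 tested members, 7 were called in WT and 4 in Il10-/- mice. With the slide as a replicate block these became 4 and 0, without moderation of the variance 2 and 2, with normexp 2 and 0, with replicates 1 and 2 averaged 4 and 2, and with the arrays of high liver level dropped (chosen after seeing the data) 0 and 1. With all 20 arrays in 1 fit Il10-/- mice had 1, where 6.51% of all features were called. The main fits called 6.8% of features in WT and 9.15% in Il10-/- mice. These shares became 8.76% and 6.94% with the block, and 3.99% and 7.93% without moderation. They were 2.29% and 0% with normexp, which tested 7 of the members. Averaging gave 4.06% and 4.39%, and the liver step 2.19% and 4.79%. Each array left out in turn gave 2 to 7 called members in WT and 2 to 4 in Il10-/- mice. The 3 other comparisons had 0 under every alternative.

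Directions turned only among differences without a call. For Gbp6 probe 1 at 0 Gy between genotypes the value became −0.14 (75th percentile), −0.071 (reference array) and −0.068 (deposited log2 table). At 7 Gy between genotypes, normexp gave −0.42 for Gbp2, −0.20 for Igtp, −0.53 and −0.21 for the Irgm1 probes and −0.36 for Irgm2, quantile scaling gave −0.012 for Gbp6 probe 2, and without the arrays of high liver level Gbp6 probe 1 had −0.16 and Iigp1 probe 1 0.31. Leave-one-out values there were −0.0032 to 0.38 for Gbp6 probe 1 and −0.022 to 0.27 for probe 2. For Gbp4 in WT mice normexp gave 0.063 and the liver step 0.0026, and in Il10-/- mice leave-one-out gave −0.41 to 0.0056.

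For the difference of responses, Gbp6 probe 1 became 0.23 (75th percentile), 0.21 (reference array), 0.044 (quantile) and 0.20 (deposited table), and Gbp7 probe 1 0.10, 0.083 and 0.078 with the 75th percentile, the reference array and the deposited table, and 0.092 on the reference scale without WT 0 Gy replicate 5 (also chosen after seeing the data). Igtp became 0.11 (quantile). Gbp4 became −0.33 (normexp), −0.18 (replicates 1 and 2 averaged) and −0.55 (liver step), where Iigp1 probe 1 became 0.023. Leave-one-out gave −0.12 to 0.34 for Gbp4, −0.22 to 0.17 for Gbp6 probe 1 and −0.35 to 0.089 for Gbp7 probe 1. The causes were not tested.

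With 5 arrays per group, an exact permutation test of 1 gene cannot go below 0.00794. Tgtp1 and Gbp7 probe 2 were too dim to follow.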
